A study of Mus musculus with 28 samples.

Results

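The TREM and CD300 receptors are immunoglobulin-like receptors on the surface of myeloid cells, and 7 genes of this group were described: the receptors Trem1, Trem2, Treml2, Treml4, Cd300lf and Cd300lb, and the adaptor Tyrobp (DAP12). They are 7 of the 54532 genes in the table of deposited counts. The set was chosen by the level of Trem1, which was higher in VWF-treated than in LPS-treated macrophages at 3.5 h. Values of that contrast, and values of Trem1 in treated cultures at 3.5 h, are therefore given as a description without a p value.

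RNA sequencing was performed on 28 cultures of murine bone marrow-derived macrophages (BMDM), grown with M-CSF from the marrow of C57/B6JB mice 8 to 12 weeks old. That age is from the cell culture methods of the paper, whose general statement on murine experiments gives a younger range. Control cultures received PBS, and treated cultures received plasma-derived von Willebrand factor (pd-VWF, 10 μg/ml) or bacterial lipopolysaccharide (LPS, 100 ng/ml). RNA was taken after 3.5 h and 16 h, with 5 control, 5 VWF and 4 LPS cultures at each time, all in medium with 1 mM CaCl2. Whether the biological replicates came from separate mice is not given in the sources used here, so p values measure the spread between cultures, which may be technical in part.

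Activating receptors of this group have almost no signalling tail of their own. They pair in the membrane with DAP12, whose ITAM motif is phosphorylated by Src-family kinases and recruits the kinase Syk. TREM1 amplifies inflammatory responses of monocytes and neutrophils, TREM2 binds lipids and apolipoproteins, and inhibitory members such as CD300LF carry ITIM motifs that recruit phosphatases.

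Trem1 lies at chr17:48232768-48246924 of GRCm38, followed on the same plus strand by Treml4 at chr17:48264295-48275360, Treml2 at chr17:48299498-48312533 and Trem2 at chr17:48346401-48354147. Cd300lb (chr11:114922781-114934386) and Cd300lf (chr11:115116214-115133992) lie on the minus strand of chromosome 11, and Tyrobp lies at chr7:30413760-30417585 on the plus strand. No exon of the 7 genes overlapped an exon of another gene. Of the 100-base windows of Cd300lf transcripts, 0.644% also occurred in Cd300ld, and the other 6 genes shared none.

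RefSeq promoter windows (GRCm38.p6, 250 bases before to 50 after the start) were matched for 5 of the 7 genes: Trem1, Trem2, Treml4, Cd300lf and Cd300lb. They were searched on both strands for 5 motifs: NF-kappaB, AP-1 (TGANTCA), PU.1 core (GAGGAAGT), GAS (TTCNNNGAA) and C/EBP (TTGCNNAA). These 3 windows are shown because, of the 5 genes with a window, Cd300lf and Cd300lb had the largest differences from control and Trem1 had the pattern that chose the set. Capitals mark a motif match.
Trem1, chr17:48232489-48232788, plus strand: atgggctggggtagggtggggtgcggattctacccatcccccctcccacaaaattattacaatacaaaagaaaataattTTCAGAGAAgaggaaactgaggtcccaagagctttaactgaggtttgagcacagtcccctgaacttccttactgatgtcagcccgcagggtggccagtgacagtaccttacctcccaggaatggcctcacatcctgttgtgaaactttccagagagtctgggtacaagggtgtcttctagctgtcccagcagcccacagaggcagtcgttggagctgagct
Cd300lf, chr11:115133943-115134242, minus strand: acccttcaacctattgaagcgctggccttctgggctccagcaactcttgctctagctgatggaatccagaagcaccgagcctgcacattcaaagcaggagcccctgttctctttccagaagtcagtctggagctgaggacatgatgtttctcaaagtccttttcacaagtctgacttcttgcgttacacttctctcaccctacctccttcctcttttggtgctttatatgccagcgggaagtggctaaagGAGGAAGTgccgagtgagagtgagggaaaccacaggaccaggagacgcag
Cd300lb, chr11:114934322-114934621, minus strand: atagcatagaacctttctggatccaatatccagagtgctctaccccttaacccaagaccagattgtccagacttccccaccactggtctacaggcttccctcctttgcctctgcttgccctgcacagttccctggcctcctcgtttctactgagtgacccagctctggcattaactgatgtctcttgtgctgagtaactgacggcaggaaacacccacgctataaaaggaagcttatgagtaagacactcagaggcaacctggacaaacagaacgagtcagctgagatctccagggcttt
The Trem1 window held a GAS match, TTCAGAGAA, at bases 80 to 88, a motif found in 8.3% of the 32851 windows of this length. The Cd300lf window held a PU.1 core match, GAGGAAGT, at bases 251 to 258, as did 3.2% of windows. Cd300lb and Treml4 held none of the 5 motifs, whose shares over all windows also included 8.46% for NF-kappaB, 7.81% for AP-1 and 10.8% for C/EBP. Trem2 held an AP-1 match at bases 242 to 248 and a C/EBP match at bases 273 to 280. A match is a description of letters, and the letters of a window say nothing here about binding.

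Total counts per culture ranged from 41131209 to 77699206 (median 52986574), and the lowest count of any of the 7 genes in a culture was 18, for Treml4 in an LPS culture at 3.5 h. Levels are given as CPM scaled with TMM factors over the 28 cultures. The TMM factors were 0.735 to 0.848 in LPS, 0.945 to 1.18 in control and 0.971 to 1.12 in VWF cultures. Scaling by library size alone moved the median log2 fold change of all genes to −0.22 for VWF and −0.55 for LPS against control at 3.5 h, and to −0.09 and −0.59 at 16 h. Control 16 h replicate 5 stood apart from its group, with a median r of 0.911 against the other cultures of the group, and LPS 16 h replicate 4 also stood apart (median r 0.940, and the lowest TMM factor), while the other 26 cultures were at 0.974 or more. Results of the 7 genes that use these cultures are given with and without them. The macrophage markers Adgre1, Csf1r, Cd68, Itgam, Lyz2, Mertk, Fcgr1 and Cd14 were detected in every culture. At 3.5 h their summed TPM was 18854 to 30691 in control, 21591 to 27175 in VWF and 10570 to 18181 in LPS cultures. At 16 h it was 7670 to 36785 in control, 28539 to 50694 in VWF and 9179 to 19007 in LPS cultures. Most of this was Lyz2, and TPM is not corrected for library composition. Of the neutrophil markers, Ly6g had 0 counts in 25 of 28 cultures and at most 0.118 TPM. In contrast, S100a8 (8.88 to 83.5 TPM) and S100a9 (1.44 to 48.9 TPM) were detected in every culture.

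On the scale per length (TPM), which allows genes to be compared within a group, the adaptor was far above its receptors. In control cultures at 3.5 h, Tyrobp averaged 4741 ± 310 TPM, Trem2 758 ± 50 TPM and Cd300lb 309 ± 66 TPM (SD, n = 5). Trem1 (6.52 ± 0.71 TPM), Cd300lf (4.93 ± 0.58 TPM), Treml4 (2.21 ± 0.59 TPM) and Treml2 (0.731 ± 0.24 TPM) were all under 10 TPM. These last 4 genes passed 10 TPM in at least 1 group that had been treated: Trem1 in VWF cultures at 3.5 h, Cd300lf and Treml2 in LPS cultures at 16 h, and Cd300lf and Treml4 in VWF cultures at 16 h.

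**Figure D1:**
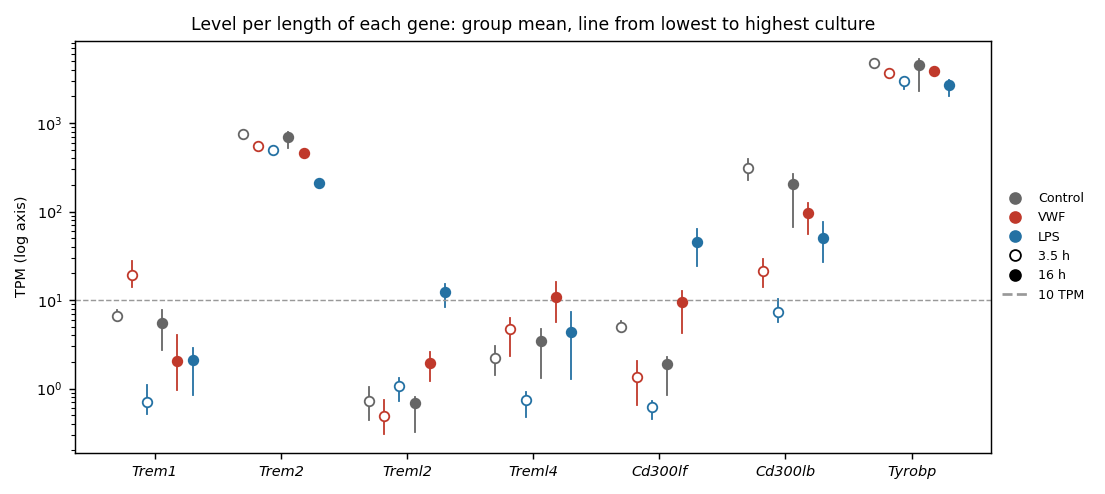
Level per length (TPM, log axis) of the 7 genes; points are group means (open, 3.5 h; filled, 16 h), lines run from the lowest to the highest culture (n = 5, or 4 for LPS), and the dashed line is 10 TPM. Tyrobp is the highest gene in all 6 groups, whereas Trem1, Treml2, Treml4 and Cd300lf cross the dashed line in treated groups only; TPM is not corrected for library composition, so groups should be compared on the CPM scale.

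A comparison tested the genes with a level of 10 TPM or more in any culture of its groups, and a gene was called at an adjusted p under 0.05 with a fold change over 2. Genes of the set under that minimum are given from the fit with a wider filter, 10 TPM in at least 1 of all 28 cultures, which kept all 7 genes, and such values are marked as from the wider filter. The wider filter kept the 4 scarce genes only through the groups where they were high.

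Trem1, the receptor that amplifies inflammatory signalling, chose the set. At 3.5 h it stood at 6.09, 5.84, 5.95, 6.40 and 5.86 CPM in control cultures, at 26.3, 17.9, 16.4, 17.5 and 21.9 CPM in VWF cultures, and at 1.62, 0.869, 0.857 and 0.786 CPM in LPS cultures. Every VWF culture lay above every control culture and every LPS culture lay below. The log2 difference was 1.75 ± 0.14 (SE) for VWF against control, −2.53 ± 0.22 for LPS against control (wider filter) and 4.30 ± 0.26 for VWF against LPS, without a test. In bulk RNA, fewer cells with a transcript and less transcript per cell cannot be told apart.

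By 16 h the Trem1 levels were 7.49, 6.28, 4.93, 4.77 and 3.85 CPM in control, 4.32, 1.49, 1.41, 2.95 and 0.988 CPM in VWF, and 3.86, 4.24, 2.25 and 1.46 CPM in LPS cultures. The group means were below control, and 1 of 5 VWF and 2 of 4 LPS cultures lay within the control range. With the wider filter, Trem1 was lower with VWF than in control (log2 fold change −1.30 ± 0.40 (SE), adjusted p = 0.0328). This call was lost, with adjusted p between 0.0537 and 0.0842, without any of control replicates 1 to 4 or VWF replicates 2, 3 or 5; without control replicate 5 it was −1.40 (adjusted p = 0.016). For LPS against control the value was −0.85 ± 0.34 (adjusted p = 0.0602), and −0.94 (adjusted p = 0.0359) without control replicate 5. It was past both thresholds with library size scaling (−1.41), with the replicate block (−1.02) and without LPS replicate 2 (−1.07), and it was −0.63 (adjusted p = 0.103) without LPS replicate 4. VWF and LPS cultures at 16 h differed by −0.43, with an interval of −1.37 to 0.50 and an adjusted p of 0.47 (wider filter), and by −0.65 (adjusted p = 0.249) without LPS replicate 4.

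The order of the 6 group means of Trem1 ran from VWF 3.5 h (20.03 CPM) over control 3.5 h (6.03 CPM), control 16 h (5.46 CPM), LPS 16 h (2.95 CPM) and VWF 16 h (2.23 CPM) to LPS 3.5 h (1.03 CPM). Only the first step separated neighbouring groups without overlap. Between the 2 times, the VWF cultures were lower by −3.16 on the log2 scale and the LPS cultures were higher by 1.56 (1.77 without LPS 16 h replicate 4, wider filter), which are descriptions without a test. Control cultures differed by −0.13 (interval −0.48 to 0.22, adjusted p = 0.568, wider filter), and by −0.04 without control 16 h replicate 5.

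**Figure D2:**
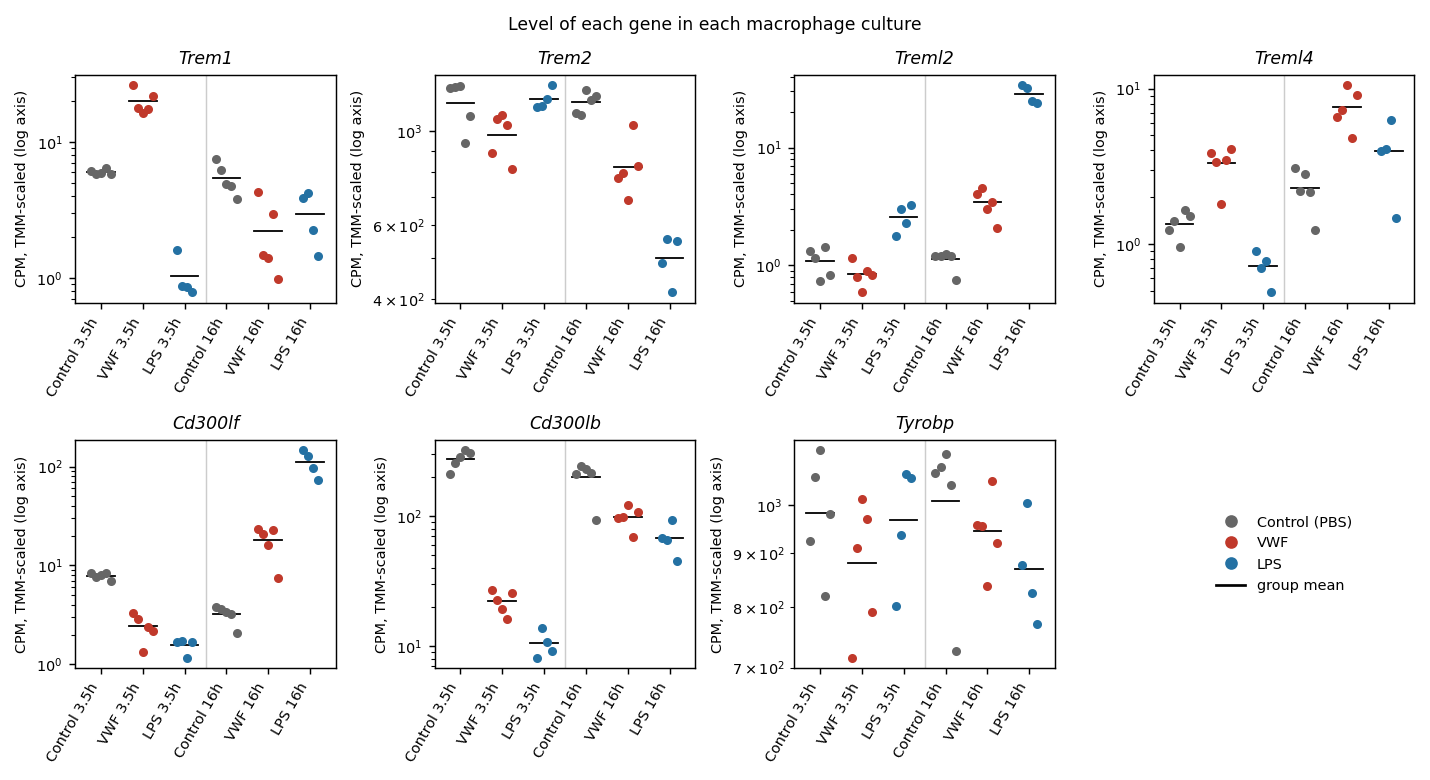
CPM scaled with TMM factors (log axis, its own range in each panel) of each gene in each of the 28 cultures; points are cultures, black lines are group means, grey is control, red is VWF and blue is LPS. Trem1 is highest in the 5 VWF cultures at 3.5 h, Treml2 and Cd300lf are highest in the 4 LPS cultures at 16 h, and Cd300lb is lower in all treated cultures at 3.5 h than in controls.

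Trem2, the lipid-binding receptor of tissue macrophages, was abundant throughout and fell late with LPS. At 3.5 h the cultures ranged from 936 to 1281 CPM in control, from 814 to 1096 CPM in VWF and from 1139 to 1289 CPM in LPS, and the control range overlapped both. VWF against control gave −0.24 ± 0.12 (SE, adjusted p = 0.132) and LPS against control 0.05 ± 0.12 (adjusted p = 0.727). With library size scaling these were −0.45 and −0.48, beside all-gene medians of −0.22 and −0.55. At 16 h the levels were 1108, 1093, 1256, 1189 and 1215 CPM in control, 773, 798, 689, 1036 and 826 CPM in VWF, and 486, 555, 415 and 549.8 CPM in LPS cultures. The 3 groups did not overlap.

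With LPS at 16 h, Trem2 fell by 1.19 on the log2 scale (SE 0.12, adjusted p = 2.27e-05), to 0.439 of the control level. With VWF it was −0.52 ± 0.11 (adjusted p = 0.00479), a difference that passed the p threshold and not the fold threshold. VWF cultures were above LPS cultures by 0.72 ± 0.14 (adjusted p = 0.00129), also under a fold of 2. With library size scaling that contrast was past the fold threshold (1.18), in a comparison whose all-gene median then moved to 0.46. Without control replicate 5, the Trem2 values against control were −0.51 for VWF and −1.18 for LPS. The change of the effect with time was tested as an interaction: the LPS effect changed between 3.5 h and 16 h by −1.23 ± 0.15 (adjusted p = 4.01e-06), and the VWF effect by −0.25 ± 0.16 (adjusted p = 0.283). These changes were −1.21 and −0.25 without control replicate 5. In the absence of LPS replicate 4, Trem2 was at −1.24 against control and the LPS effect changed by −1.29, and VWF was above LPS by 0.76 (adjusted p = 0.00148).

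Treml2, a TREM-like receptor not known to pair with DAP12, was scarce until 16 h of LPS. At 3.5 h it stood at 1.34, 1.16, 0.736, 1.43 and 0.835 CPM in control, 1.15, 0.793, 0.592, 0.895 and 0.838 CPM in VWF, and 1.77, 2.99, 2.28 and 3.25 CPM in LPS cultures. The LPS cultures lay above all others and the VWF cultures overlapped the controls. With the wider filter, LPS against control gave 1.24 ± 0.27 (SE, adjusted p = 0.00204), and VWF against control −0.34 ± 0.26 (adjusted p = 0.328). The LPS call was lost with library size scaling (0.70).

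At 16 h Treml2 was at 1.21, 1.20, 1.25, 1.20 and 0.754 CPM in control, 4.01, 4.52, 3.03, 3.46 and 2.09 CPM in VWF, and 34.0, 31.8, 25.0 and 23.7 CPM in LPS cultures. The groups were separated in that order without overlap. LPS against control was 4.70 ± 0.20 on the log2 scale, a 26-fold difference (adjusted p = 7.76e-08). VWF against control was 1.60 ± 0.25 (adjusted p = 0.000739, wider filter), a 3.03-fold difference. The VWF cultures were below the LPS cultures by −3.06 ± 0.22 (adjusted p = 2.07e-06). Without control replicate 5 the values against control were 4.59 for LPS and 1.49 for VWF. Both effects grew with time, by 3.48 ± 0.32 for LPS (adjusted p = 1.44e-07) and 1.98 ± 0.35 for VWF (adjusted p = 0.00018, wider filter), or by 3.37 and 1.85 without control replicate 5. In the absence of LPS replicate 4, Treml2 was at 4.78 for LPS against control and −3.14 for VWF against LPS, and the change of the LPS effect was 3.55.

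Treml4, a DAP12-coupled receptor linked to TLR7 responses and to binding of dead cells, was higher with VWF at both times. At 3.5 h it was at 1.23, 1.40, 0.950, 1.66 and 1.50 CPM in control, 3.86, 3.36, 1.81, 3.49 and 4.06 CPM in VWF, and 0.897, 0.700, 0.779 and 0.488 CPM in LPS cultures. The VWF cultures were above all controls and the LPS cultures below all of them. With the wider filter, VWF against control was 1.32 ± 0.24 (SE, adjusted p = 0.000789), a 2.5-fold difference, and LPS against control was −0.89 ± 0.27 (adjusted p = 0.0127), under the fold threshold. The LPS value was past that threshold with library size scaling (−1.42) and without LPS replicate 1 (−1.01).

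At 16 h Treml4 was at 3.09, 2.19, 2.83, 2.17 and 1.24 CPM in control, 6.56, 7.32, 10.6, 4.79 and 9.06 CPM in VWF, and 3.99, 4.07, 6.23 and 1.46 CPM in LPS cultures. The VWF cultures again lay above all controls, and the LPS cultures overlapped both groups. VWF against control was 1.72 ± 0.29 (adjusted p = 0.00119), and 1.57 without control replicate 5. LPS against control was 0.81 ± 0.40 (adjusted p = 0.12, wider filter), and 0.66 without control replicate 5; without LPS replicate 4, the lowest of its group, it was 1.08 (adjusted p = 0.0187). VWF against LPS was 0.96 ± 0.38 (adjusted p = 0.0527), and was called without LPS replicate 3 (1.26), without VWF replicate 4 (1.10) and with library size scaling (1.40), and it was 0.69 (adjusted p = 0.0524) without LPS replicate 4. With the replicate block that contrast was 0.97 (adjusted p = 0.00176), under a fold of 2. The LPS effect on Treml4 changed between the times by 1.72 ± 0.49 (adjusted p = 0.00846, wider filter), whereas the change of the VWF effect was 0.44 ± 0.37 (interval −0.29 to 1.17, adjusted p = 0.43). These were 1.56 (adjusted p = 0.00965) and 0.26 without control replicate 5, and the LPS change was 1.98 without LPS replicate 4. Between control times Treml4 was at 0.78 (adjusted p = 0.0418, wider filter), and at 0.93 (adjusted p = 0.00355) without control replicate 5, both under a fold of 2.

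Cd300lf, an inhibitory receptor that binds phosphatidylserine and ceramide, was lower in treated cultures at 3.5 h and higher at 16 h. At 3.5 h it was at 8.31, 7.65, 7.91, 8.39 and 6.93 CPM in control, 3.34, 2.87, 1.32, 2.37 and 2.20 CPM in VWF, and 1.69, 1.71, 1.17 and 1.68 CPM in LPS cultures. All treated cultures were below all controls. With the wider filter it fell by 1.67 on the log2 scale with VWF (SE 0.21, adjusted p = 5.2e-05) and by 2.30 with LPS (SE 0.16, adjusted p = 2.7e-07).

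At 16 h the Cd300lf levels were 3.76, 3.66, 3.38, 3.26 and 2.07 CPM in control, 23.2, 20.7, 15.9, 22.6 and 7.52 CPM in VWF, and 146, 127, 96.1 and 72.4 CPM in LPS cultures. The 3 groups did not overlap, with LPS highest. LPS against control was 5.13 ± 0.26, a 35-fold difference (adjusted p = 2.68e-07), and VWF against control was 2.47 ± 0.31, a 5.52-fold difference (adjusted p = 0.000156). VWF was below LPS by −2.62 ± 0.33 (adjusted p = 7.9e-05). Without control replicate 5 the values against control were 5.00 for LPS and 2.34 for VWF. In the absence of LPS replicate 4, LPS against control was 5.28 and VWF against LPS −2.78.

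The turn from lower to higher was tested as the change of the effect with time. For Cd300lf this was 7.44 ± 0.30 for LPS (adjusted p = 1.59e-11) and 4.18 ± 0.38 for VWF (adjusted p = 5.89e-08). The values were 7.32 and 4.04 without control replicate 5, and 7.59 for LPS without LPS replicate 4. The controls themselves moved the other way, by −1.27 ± 0.17 from 3.5 h to 16 h (adjusted p = 0.000256, wider filter), and by −1.16 without control replicate 5. From 3.5 h to 16 h the level rose by 6.16 ± 0.28 in LPS cultures (adjusted p = 5.59e-07), or by 6.32 without LPS replicate 4, and by 2.90 ± 0.33 in VWF cultures (adjusted p = 1.28e-05).

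Cd300lb, an activating CD300 receptor that signals through DAP12, showed the largest early fall of the set. At 3.5 h it was at 212, 258, 287, 322 and 306 CPM in control, 26.8, 22.5, 19.2, 16.0 and 25.4 CPM in VWF, and 8.13, 13.8, 10.8 and 9.10 CPM in LPS cultures. The 3 groups did not overlap. Cd300lb fell by 3.63 on the log2 scale with VWF (SE 0.17, adjusted p = 1.99e-08), a 12.4-fold lower level, and by 4.70 with LPS (SE 0.19, adjusted p = 3.84e-09), a 26.1-fold lower level.

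At 16 h Cd300lb was at 212, 242, 229, 216 and 92.8 CPM in control, 97.4, 98.3, 121, 69.6 and 107 CPM in VWF, and 68.0, 66.0, 93.2 and 45.4 CPM in LPS cultures. Control replicate 5 fell within the treated range, and the other 4 controls were above every treated culture. LPS against control was −1.50 ± 0.30 (adjusted p = 0.00208) and VWF against control −1.02 ± 0.25 (adjusted p = 0.0117). Without control replicate 5 these were −1.69 (adjusted p = 6.55e-05) and −1.20 (adjusted p = 6.51e-05), and LPS against control was −1.36 (adjusted p = 0.00584) without LPS replicate 4.

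The VWF call on Cd300lb at 16 h sat at the fold threshold. It was under that threshold without any of control replicates 1 to 4 or VWF replicate 4 (−0.91 at the smallest), with the replicate block (−0.97, adjusted p = 0.049), with edgeR's filterByExpr (−0.96) and with no filter (−0.95). VWF and LPS cultures at 16 h differed by 0.54 ± 0.21 (interval 0.12 to 0.96, adjusted p = 0.0535), and by 0.38 (adjusted p = 0.0926) without LPS replicate 4.

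Between the times the Cd300lb level rose by 2.17 ± 0.18 in VWF cultures (adjusted p = 1e-06) and by 2.73 ± 0.25 in LPS cultures (adjusted p = 1.97e-05). The effects against control changed by 2.65 ± 0.30 for VWF (adjusted p = 1.05e-06) and 3.22 ± 0.36 for LPS (adjusted p = 1.14e-06), or by 2.45 and 3.04 without control replicate 5. In the absence of LPS replicate 4, the level rose by 2.89 in LPS cultures and the LPS effect changed by 3.37. Control cultures differed between the times by −0.48 ± 0.23 (adjusted p = 0.113), and by −0.30 (adjusted p = 0.0443) without control replicate 5, under a fold of 2 in both.

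Tyrobp encodes the adaptor DAP12, through which the receptors of Trem1, Trem2, Treml4 and Cd300lb can signal. Over all 28 cultures it ranged from 716 to 1129 CPM, and the ranges of the 6 groups overlapped. Against control its log2 difference was −0.14 (interval −0.38 to 0.09, adjusted p = 0.373) for VWF and 0.00 (interval −0.25 to 0.24, adjusted p = 0.977) for LPS at 3.5 h. At 16 h the intervals were −0.36 to 0.15 for VWF (adjusted p = 0.626) and −0.47 to 0.11 for LPS (adjusted p = 0.335). Without control replicate 5, at 725 CPM the lowest of its group, the 16 h values were −0.21 (adjusted p = 0.0372) and −0.28 (adjusted p = 0.0321), again under a fold of 2. In the absence of LPS replicate 4, LPS against control at 16 h was −0.13 (adjusted p = 0.506). With library size scaling Tyrobp was −0.54 for LPS against control at 3.5 h and −0.76 at 16 h, beside all-gene medians of −0.55 and −0.59.

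**Figure D3:**
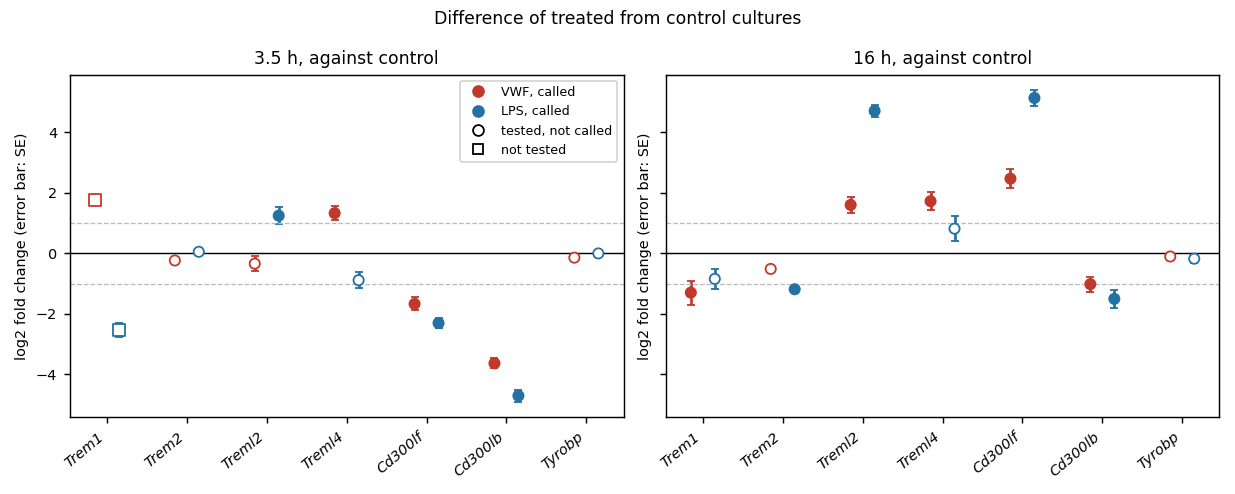
Log2 fold change against control with its SE for each gene at 3.5 h (left) and 16 h (right), red for VWF and blue for LPS; filled circles were called, open circles were tested and not called, open squares were not tested, and dashed lines mark a fold of 2. Cd300lf moves from −1.67 and −2.30 at 3.5 h to 2.47 and 5.13 at 16 h, while Tyrobp stays within 0.18 of 0 at both times.

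Counted over the set, without Trem1, at 3.5 h, 3 of the 6 genes were measured above the filter in VWF against control and 1 of them, Cd300lb, was called, beside 14.7% of all 8200 genes tested. With the wider filter, Treml4 was called higher and Cd300lf and Cd300lb lower, 3 of 6 genes beside 15.3% of 8864 genes. LPS against control at 3.5 h also gave 1 of 3 genes beside 24.5% of all genes, and 3 of 6 with the wider filter beside 25.1% (Treml2 higher, Cd300lf and Cd300lb lower). The median log2 fold change of the 6 genes was −0.29 for VWF and −0.45 for LPS with the wider filter, beside −0.01 and −0.02 over all genes.

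In VWF against LPS at 3.5 h, the contrast that chose the set, no test was made on the 7 genes. Trem1 (4.30) and Cd300lb (1.10) were past a log2 difference of 1 on the genes above the filter, and Treml4 (2.20) and Treml2 (−1.59) were past it with the wider filter, a fold alone and not a call. For all genes, 11.4% and 11.6% passed both the fold and the p threshold under the 2 filters, and nothing is read from the comparison of these numbers, since the contrast chose the set. The others were at −0.26 for Trem2, −0.11 for Tyrobp and 0.62 for Cd300lf (wider filter). Trem2 and Tyrobp changed sign with library size scaling (0.03 and 0.18), which moved the all-gene median to 0.32. Without LPS replicate 1 the Cd300lb value was 0.99.

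At 16 h, 5 of the 7 genes were above the filter for VWF against control. Treml4 and Cd300lf were higher and Cd300lb lower, beside 8.71% of all 7798 genes called. Treml4 and Cd300lf reached 10 TPM in 3 of 5 VWF cultures each and in 0 control cultures, so they entered through the group where they were high. The wider filter added Treml2 (higher) and Trem1 (lower), 5 of 7 genes beside 9.13%. For LPS against control, Treml2 and Cd300lf were higher and Trem2 and Cd300lb lower, 4 of the 5 genes above the filter beside 27.6% of all genes, and the same 4 of 7 with the wider filter beside 27.1%. Treml2 (3 of 4 LPS cultures) and Cd300lf (4 of 4) reached 10 TPM in 0 control cultures and entered in the same way. The high group likewise admitted these genes to VWF against LPS at 16 h and to the comparisons between times. For VWF against LPS, Treml2 and Cd300lf were lower with VWF, 2 of 6 genes beside 25.5% of all genes. The VWF and LPS comparisons at each time share their control cultures.

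Between control cultures at 3.5 h and 16 h, 0 of the 3 genes above the filter were called by edgeR and 0 by DESeq2, and 0 had an unadjusted p under 0.05, beside 9.08% of all genes. With the wider filter Cd300lf was called, 1 of 7 genes beside 9.55%. From 3.5 h to 16 h, 3 of 5 genes were called in VWF cultures (Treml4, Cd300lf and Cd300lb, all higher) beside 21.4% of all genes, and 4 of 5 in LPS cultures (Treml2, Cd300lf and Cd300lb higher, Trem2 lower) beside 28.1%. The effect of VWF changed with time for 2 of 5 genes beside 13.5% of all genes, and that of LPS for 4 of 5 beside 26.3%.

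The list of other TREM and CD300 family receptors held 10 genes, of which 9 were in the table. It includes Pilra, a paired immunoglobulin-like type 2 receptor that belongs to neither family. At 3.5 h, 5 were tested: with VWF 1 fell (median −0.41), and with LPS 2 fell (median −0.58), beside 14.7% and 24.5% of all genes called and medians of −0.01 and −0.02. Treml1, best known from platelet granules, was called lower with both, at −1.38 ± 0.25 for VWF (adjusted p = 0.000868) and −2.04 ± 0.25 for LPS (adjusted p = 2.91e-05). It averaged 9.96 ± 2.1 TPM (SD) in control, 3.34 ± 1.4 TPM in VWF and 1.51 ± 0.45 TPM in LPS cultures. Treml1 thus entered both comparisons through control cultures, the group where it was high. Cd300a, an inhibitory receptor, went from 236 ± 25 CPM in control to 105 ± 7.5 CPM with LPS (−1.15 ± 0.10, adjusted p = 1.68e-06), and was at 119 ± 16 CPM with VWF (−0.97 ± 0.10, under the fold threshold). Pilra, Cd300c2 and Cd300ld were between −0.58 and 0.68 in both comparisons.

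At 16 h, 7 of these receptors were tested, and 2 rose and 3 fell in each treatment (median 0.18 for VWF and −0.35 for LPS, beside −0.03 over all genes in both and 8.71% and 27.6% of all genes called). Of the 7, 5 reached 10 TPM in a control culture, and Trem3 and Cd300e entered through treated cultures. Treml1 again entered through control cultures, where it was high (8.51 ± 1.7 TPM (SD), beside 3.85 ± 0.69 TPM in VWF and 0.697 ± 0.16 TPM in LPS cultures). Cd300a, Cd300ld and Treml1 fell with VWF (−1.15, −1.54 and −1.10) and with LPS (−1.67, −1.12 and −3.10). Trem3, an activating DAP12-coupled receptor of the mouse, rose with VWF (1.80 ± 0.17, adjusted p = 2.64e-05) and LPS (2.02 ± 0.25, adjusted p = 9.59e-05). Pilra, an ITIM receptor outside both families, went from 23.6 ± 4.8 CPM in control to 129 ± 14 CPM with VWF (2.44 ± 0.16, adjusted p = 2.74e-06), and was at 42.3 ± 9.3 CPM with LPS (0.88 ± 0.19, under the fold threshold). Cd300e went from 2.80 ± 1.6 CPM to 26.3 ± 13 CPM with LPS (3.26 ± 0.86, adjusted p = 0.00988), and was at 8.14 ± 3.0 CPM with VWF (1.52 ± 0.75, adjusted p = 0.176). The VWF value was 1.21 (adjusted p = 0.00414) without control replicate 5, and 3 of the 7 then rose with VWF. The LPS median was −0.52 without LPS replicate 4, with 2 higher and 3 lower as before. In VWF against LPS at 16 h, 6 were tested, Pilra was called higher with VWF and Cd300e lower, beside 25.5% of all genes called.

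**Figure D4:**
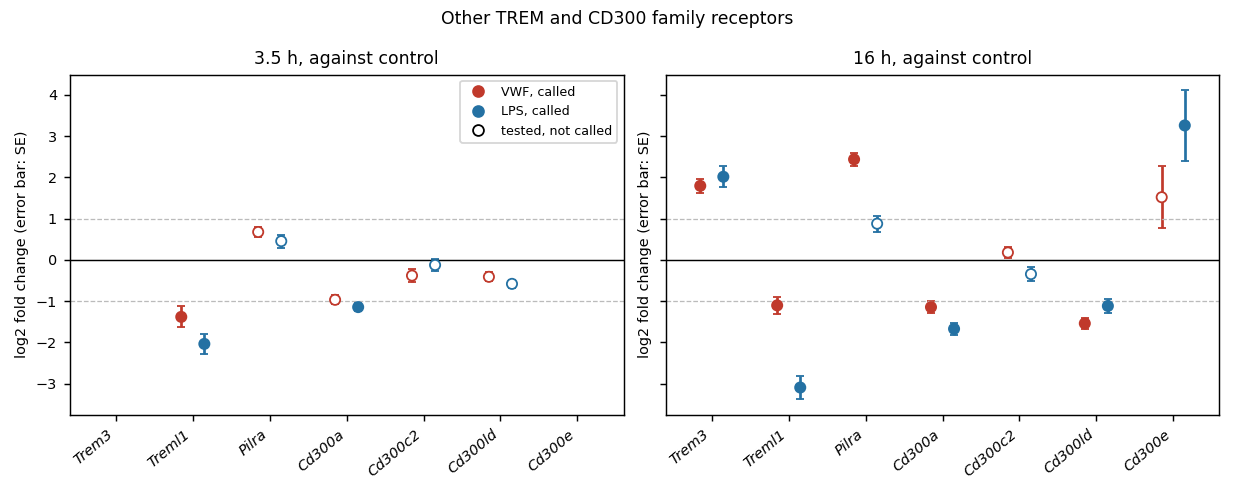
Log2 fold change against control with its SE of the other TREM and CD300 family receptors tested and of Pilra, which is in neither family, at 3.5 h (left) and 16 h (right), red for VWF and blue for LPS. Filled circles were called, open circles were not, and a gene without a point was under 10 TPM in that comparison. Pilra rises to 2.44 with VWF at 16 h, and Treml1 is at −3.10 with LPS.

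Of 9 other receptors that couple to DAP12, 5 were tested in VWF against control at 3.5 h. Of these, 0 were called by edgeR or DESeq2, beside 14.7% of all genes, and 3 had an unadjusted p under 0.05. In LPS against control, 1 of 3, Plxna1, fell with LPS (−1.31 ± 0.20, adjusted p = 0.000142), beside 24.5% of all genes called. At 16 h, 4 of 6 rose with VWF, with a median of 2.16 beside −0.03 over all genes, of which 8.71% were called. Pilrb1 (2.52 ± 0.11, from 3.86 to 22.3 CPM) and Sirpb1a (2.49 ± 0.34, from 1.86 to 10.5 CPM) led, and Sirpb1c and Pilrb2 also rose. With LPS, 4 of 7 rose and Clec5a fell, beside 27.6% of all genes called, and Sirpb1a (3.27 ± 0.44) and Sirpb1b (2.87 ± 0.21) led. Only 3 genes of this list reached 10 TPM in a control culture at 16 h, so the others entered through treated cultures.

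Among 23 genes of ITAM and ITIM signalling, all tested at 3.5 h, 5 rose and 2 fell with VWF (median 0.07) and 4 rose and 3 fell with LPS (median 0.00). Over all genes 14.7% and 24.5% were called, with medians of −0.01 and −0.02. Src, a kinase of the family that phosphorylates ITAMs, went from 21.1 ± 2.1 CPM in control to 233 ± 19 CPM with VWF (3.48 ± 0.09, adjusted p = 6.16e-10) and 232 ± 37 CPM with LPS (3.48 ± 0.13, adjusted p = 1.84e-09). Malt1, the protease of the CARD9 complex, rose by 2.82 ± 0.21 with VWF and 2.74 ± 0.19 with LPS. At 16 h, 2 of 22 rose and 1 fell with VWF, led by Fgr (1.72 ± 0.20) and Vav3 (−1.26 ± 0.17), while 8 of 22 rose with LPS, among them Src (2.49 ± 0.15), beside 8.71% and 27.6% of all genes. In VWF against LPS at 16 h, 6 of 23 genes were lower with VWF, among them Syk, Malt1 and Src, beside 25.5% of all genes called.

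Of 8 ligands and sheddases of TREM receptors, 6 were tested. Adam17, a protease that sheds TREM2, rose with VWF at 3.5 h, from 183 ± 24 to 389 ± 46 CPM (1.10 ± 0.11, adjusted p = 5.67e-06), as the 1 call of that comparison, beside 14.7% of all genes. With LPS at 3.5 h 0 were called by edgeR or DESeq2 (4 had an unadjusted p under 0.05), and with VWF at 16 h 0 were called by either (3 had an unadjusted p under 0.05). Over all genes 24.5% and 8.71% were called. With LPS at 16 h 2 rose and 1 fell, beside 27.6% of all genes called. Psen2 rose (1.17 ± 0.10) and Hmgb1 fell by 1.37 (SE 0.09). In 15 genes that mark TREM2-linked lipid-associated macrophages, Cst7 was the only call at 3.5 h, with VWF (1.86 ± 0.32) and LPS (4.67 ± 0.31), beside 14.7% and 24.5% of all genes.

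At 16 h, 1 of those 15 genes rose and 6 fell with VWF (median −0.61), and 2 rose and 5 fell with LPS (median −0.55), beside 8.71% and 27.6% of all genes called and a median of −0.03 over all genes in both. With control replicate 5 left out, 5 fell with VWF and the medians were −0.81 and −0.45. Without LPS replicate 4 the LPS median was −0.88 with the same counts, but Spp1 was called in place of Lipa. In the lists of DAP12-coupled receptors, of ITAM and ITIM signalling and of ligands, the counts against control at 16 h were equal without either culture. The genes called were not all the same: without control replicate 5, Ptpn6 was called with LPS in place of Grb2. From 3.5 h to 16 h, Spp1, Cd9 and Lpl of the 15 genes were called higher in the control cultures themselves. In VWF cultures only Clec7a was called between the times, as lower. In LPS cultures Spp1 and Cst7 were called higher and Itgax lower. Falls of Spp1 and Cd9 with VWF are thus differences from control at 16 h, not called falls over time. Spp1, which encodes osteopontin, fell by 4.68 on the log2 scale with VWF (SE 0.18, adjusted p = 9.59e-08), and the tetraspanin gene Cd9 fell by 2.42 (SE 0.14, adjusted p = 1.25e-06). With LPS, Cst7 rose by 6.82 ± 0.22 and Itgax, which encodes CD11c, fell by 2.26 (SE 0.22).

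Over the 28 cultures, log2 CPM of the 7 genes followed each other in part. The highest Pearson r between 2 of the genes was 0.84 for Treml2 and Cd300lf, and the lowest were −0.83 for Trem2 with Treml2 and −0.82 for Trem2 with Cd300lf. Trem1 had an r between −0.48 and 0.16 with the other 6. Among all other genes above 10 TPM in at least 1 culture, the closest to Trem1 were Nfe2l2 (r = 0.89), Foxn2 (0.88) and Sh3tc1 (0.86). The closest to Trem2 were Rgs10 (0.96), Lyzl4 (0.95) and Rpl10a (0.95), and those closest to Treml2 were P4ha1 (0.97), Cnp (0.96) and Scarf1 (0.96). Treml4 was closest to Vcp (0.93), Pex19 (0.90) and Fkbp15 (0.89), Cd300lf to Hmox1 (0.95), A530064D06Rik (0.94) and Clip2 (0.94), and Cd300lb to Prkch (0.98), Dvl2 (0.98) and Arhgap39 (0.97). Tyrobp, the flattest gene, reached 0.72 with Gm2a and Higd2a and 0.71 with Zfp652os. These values describe 28 cultures that share treatments, times and libraries, and carry no p value.

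Markers of other cell types were summed in TPM in each culture. TREM1 is abundant in neutrophils: the 10 neutrophil markers summed to 20.7 to 68.9 TPM in control, 20.4 to 94.2 TPM in VWF and 31.6 to 81.9 TPM in LPS cultures at 3.5 h, so the VWF and LPS ranges overlapped. S100a8 was the highest, and Ly6g, Mpo, Retnlg and Cxcr2 were under 1 TPM in every culture. The highest values over all cultures were 48.9 TPM for S100a9, 12.8 for Ngp, 10.4 for Camp, 2.36 for Ltf and 1.13 for Elane. The 5 dendritic cell markers summed to 0.616 to 1.00 TPM in control, 8.30 to 10.2 TPM in VWF and 10.4 to 12.0 TPM in LPS cultures at 3.5 h, most of it Xcr1, while Flt3, Clec9a and Siglech stayed under 1 TPM. The 5 B cell markers summed to at most 21.2 TPM in any culture, with Cd79b the only marker over 1 TPM. The 6 T and NK cell markers summed to at most 1.92 TPM, the 4 mast cell and basophil markers to at most 4.67 TPM, the 4 stromal markers to at most 98.9 TPM and the 3 erythroid markers to at most 0.355 TPM. The part of these cells in the levels of the receptors was not tested.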

How the data were processed

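Total RNA of 28 BMDM cultures was sequenced in 6 groups of 4 or 5. Groups, times, doses and replicate numbers came from the labels. The authors mapped the reads with STAR to GRCm38 and deposited raw read counts per Ensembl gene, without normalization. For the annotation, the strand setting and reads with several matches, details were not given in the sources used here. Reads of overlapping genes could therefore be counted in either.

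The 7 genes, the lists of related genes and the cell type markers were chosen with earlier results of these data known. Exon lengths and positions came from GENCODE M21, and TPM was computed from counts and lengths (30143 of the 30159 genes with a count had a length). Differences were tested by the quasi-likelihood method of edgeR, with only the groups compared in each fit (R 4.3.3, edgeR 4.0.16, robust dispersion, TMM factors), on genes at 10 TPM or more in at least 1 of its cultures. Benjamini-Hochberg adjustment covered all genes tested, and genes were called at 0.05 with an absolute log2 fold change over 1. There were 11 comparisons, 2 of them interactions of treatment and time. The paper's methods used DESeq2, which was an alternative here (version 1.42.0). The SE was the log2 fold change over the square root of its F statistic, and intervals are 95% intervals from that SE with the normal quantile. Named genes were the 7 genes, every tested gene of the family receptor list, and the 2 called genes with the largest change of each other list per treatment and time. Some other called genes of these lists, such as Sirpb1c, Pilrb2, Clec5a and Syk, were named beside their counts, outside that rule. The genes closest to each of the 7 were ranked by Pearson r of log2 CPM (prior count 2).

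Alternatives were median-of-ratios factors, library size alone, filterByExpr, no filter, the filter over 28 cultures, a replicate block, all groups fitted together, no fold threshold, and omission of each culture in turn. The alternatives of the wider filter were chosen after seeing the data. Cultures with the same number deviated together (r over 0.1 in each pair) in VWF against LPS at 16 h alone (0.16 to 0.78, 4 pairs). There the replicate block changed no call on the 7 genes (2 called with it). With the block, Treml4 (0.97, adjusted p = 0.00176) and Cd300lb (0.52, adjusted p = 0.000176) passed the p threshold and not the fold threshold. Neither passed the p threshold without it. No culture duplicated another, since the chi-square per degree of freedom was at least 24.9 over 52 pairs within groups. Depth was 41131209 to 77699206 counts per culture. No protein sequence was used. Values of some list genes are not reported here.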

Additional observations from a re-analysis of the deposited data

Results flagged for a closer look

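In 5 of 42 groups of cultures checked, 1 culture lay far from the others of its group, where chance alone gives about 1 in 20. Control 16 h replicate 5 was the low culture in 3 of them, at 0.754 CPM for Treml2, 725 CPM for Tyrobp and 92.8 CPM for Cd300lb. LPS 3.5 h replicate 1 was high for Trem1 at 1.62 CPM, beside 0.786 to 0.869 CPM in the other 3 cultures. LPS 3.5 h replicate 3 was low for Cd300lf at 1.17 CPM, beside 1.68 to 1.71 CPM in the others.

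The effect of treatment differed between 3.5 h and 16 h, by the interaction of treatment and time. With VWF it changed on the log2 scale by 1.98 for Treml2, 4.18 for Cd300lf and 2.65 for Cd300lb. With LPS it changed by −1.23 for Trem2, 3.48 for Treml2, 1.72 for Treml4, 7.44 for Cd300lf and 3.22 for Cd300lb.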

How the results depend on the processing

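Of the log2 differences of the 7 genes under the alternatives, 1489 kept their side of the thresholds or, without a test, stayed within the spread. Another 16 lost the call, 14 gained it, 1 without a test moved by more than the spread and 2 without a test changed sign. The 2 were Trem2 (0.035) and Tyrobp (0.18) in VWF against LPS at 3.5 h with library size alone. Changes of sign between values that were not called are counted among the 1489. For example, Trem2 in LPS against control at 3.5 h was at 0.05, and at −0.48 with library size alone. Numbers of genes called depended mostly on the filter. With filterByExpr, with no filter and with 10 TPM in any of 28 cultures, 3 genes in place of 1 were called in VWF and in LPS against control at 3.5 h, and 1 in place of 0 between control times. In VWF against LPS at 3.5 h, the contrast that chose the set and a description only, they gave 4 in place of 2 past a fold of 2. The last of these filters also gave 5 in place of 3 in VWF against control at 16 h. These filters admit genes that the comparison's own filter left out. Library size alone gave 4 in place of 2 in VWF against LPS at 16 h. It also changed the split of all genes called higher and lower: in VWF against control at 3.5 h from 746 and 458 to 608 and 652, in LPS against control from 1047 and 963 to 704 and 2213 at 3.5 h and from 1221 and 989 to 782 and 2319 at 16 h, and in VWF against LPS from 353 and 503 to 772 and 334 at 3.5 h and from 837 and 1095 to 1772 and 687 at 16 h.

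Leaving out each culture gave 1 to 2 genes past a fold of 2 in VWF against LPS at 3.5 h (1 without LPS replicate 1), and 2 to 3 genes called in VWF against control and in VWF against LPS at 16 h, and the main number in the other 8 comparisons. With the replicate number as a block, the number of genes called was 2 in VWF against control at 16 h, where Cd300lb was at −0.97, and the main number in the other 10 comparisons; Trem1 in LPS against control at 16 h (−1.02, wider filter) was called with the block. Outside VWF against LPS at 16 h, not every pair of cultures with the same number had an r over 0.1, although single pairs reached 0.68. That check cannot settle whether replicate numbers pair the cultures. The lowest count of a gene of the set in a culture was 18, for Treml4 with LPS at 3.5 h. The list counts without single cultures were added after seeing the data.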
